A study of Arabidopsis thaliana with 12 samples.

Results

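AT3G18260 and AT1G68230 are Arabidopsis thaliana genes of the reticulon-like family whose array signals were higher in ire1a ire1b double mutant seedlings than in wild-type seedlings. Both were selected on the measured mutant to wild-type differences of these same arrays, so those differences are given below as a description, with no test. Each gene had 1 probe set of its own in the platform gene table, 257064_at for AT3G18260 and 260460_at for AT1G68230, and together they are 2 of 13286 genes with a probe set that lists only 1 gene. The 12 arrays measured total RNA of whole 10-day-old seedlings of ecotype Columbia (Col-0) grown at 22 °C, in 4 groups of 3. These groups were ire1a ire1b with tunicamycin, ire1a ire1b with mock treatment, wild type with tunicamycin and wild type with mock treatment. Every seedling group, the mock groups included, received actinomycin D, an inhibitor of transcription, at 75 µM from 2 h before the treatment. Tunicamycin, which blocks N-glycosylation and so causes unfolded protein to build up in the endoplasmic reticulum (ER), was given at 5 mg/l for 5 h, and mock seedlings received its solvent DMSO. The labels do not name the mutant alleles, and they do not say that the 3 samples of a group were separate cultures, so the p-values below cover the spread among these samples alone, part or all of which may be technical.

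Reticulons are membrane proteins whose paired hydrophobic hairpins sit in the ER membrane and curve it into tubules, and plants carry an enlarged family of reticulon-like genes. IRE1A and IRE1B are ER membrane proteins with a kinase and an RNase domain. During ER stress they splice the mRNA of the transcription factor bZIP60 and take part in the decay of mRNAs at the ER membrane. Because transcription was inhibited in all groups, a level on these arrays joins what was present before actinomycin D with what decayed afterwards, and these cannot be told apart here.

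The signal is the linear array intensity per probe set as deposited, scaled by the authors to a common mean. A value of 68.7 marks the lower limit of mean signal for testing, which kept 13647 of 22746 probe sets and serves below as a guide to dim values.

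AT3G18260 read 168.0, 135.3 and 165.6 on the ire1a ire1b tunicamycin arrays and 172.4, 155.7 and 168.1 on the ire1a ire1b mock arrays. It read 46.6, 43.9 and 62.7 on the wild-type tunicamycin arrays and 37.8, 36.1 and 26.6 on the wild-type mock arrays. All 6 mutant arrays lay above all 6 wild-type arrays, and the lowest mutant value was 2.16 times the highest wild-type value. Each wild-type array was below 68.7 and each mutant array above it.

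Group means for AT3G18260 were 156.3 ± 18.2 in ire1a ire1b with tunicamycin and 165.4 ± 8.67 in ire1a ire1b mock (SD, n = 3 each). They were 51.1 ± 10.2 in wild type with tunicamycin and 33.5 ± 6.04 in wild-type mock (SD, n = 3 each). In the order of level, the 2 mutant groups were adjacent and overlapped in range. The wild-type groups followed, and there the lowest tunicamycin array, 43.9, was above the highest mock array, 37.8.

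AT1G68230 read 362.8, 206.4 and 364.0 on the ire1a ire1b tunicamycin arrays and 293.6, 261.9 and 273.8 on the ire1a ire1b mock arrays. It read 58.8, 78.9 and 66.8 on the wild-type tunicamycin arrays and 93.3, 73.8 and 55.9 on the wild-type mock arrays. Again all 6 mutant arrays lay above all 6 wild-type arrays, the lowest mutant value being 2.21 times the highest wild-type value. Of the 6 wild-type arrays, 3 were above 68.7, so the wild-type signal of this gene sat at the limit rather than wholly under it.

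Group means for AT1G68230 were 311.1 ± 90.6 in ire1a ire1b with tunicamycin and 276.4 ± 16.0 in ire1a ire1b mock (SD, n = 3 each). Wild type averaged 68.2 ± 10.1 with tunicamycin and 74.3 ± 18.7 in mock (SD, n = 3 each). The mutant groups overlapped each other, as did the wild-type groups, so within a genotype the order of the means did not exceed the spread. The widest group was ire1a ire1b with tunicamycin, with a coefficient of variation of 29.1%, with array 2 at 206.4 beside 362.8 and 364.0.

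**Figure D1:**
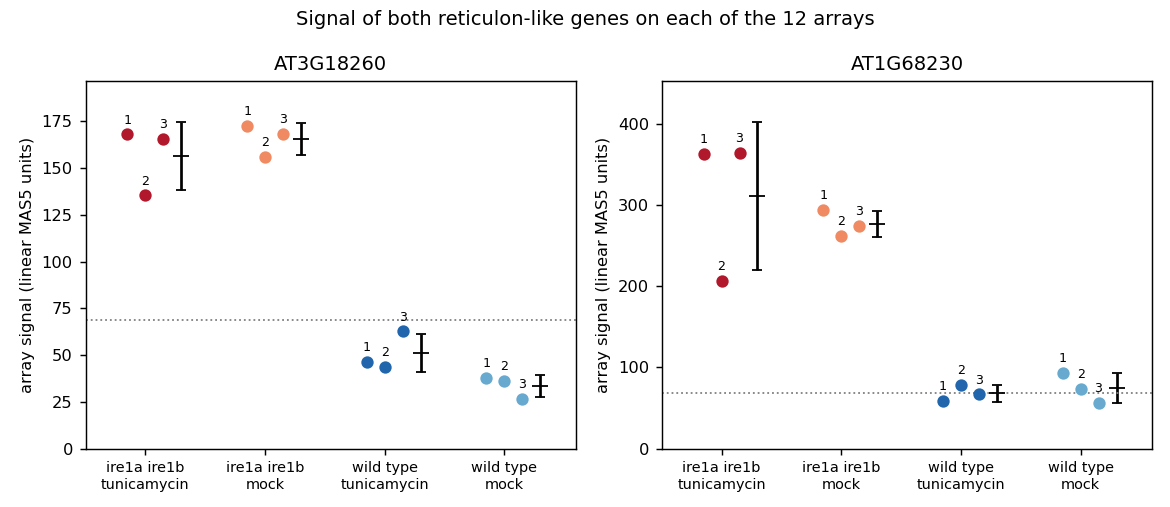
Signal (linear axis) of AT3G18260 and AT1G68230 on each of the 12 arrays, with the groups in the order ire1a ire1b tunicamycin, ire1a ire1b mock, wild type tunicamycin and wild type mock. Points are arrays, marks with error bars are group means and SD, and the dotted line is the filter value of 68.7. Every mutant point lies above every wild-type point in both panels.

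The low arrays within a group were partly shared by the members. Both genes had their lowest value on the same array in 3 of 4 groups, namely array 2 of ire1a ire1b tunicamycin, array 2 of ire1a ire1b mock and array 3 of wild-type mock. They shared the highest array in 2 of 4 groups, array 1 of each mock group. Array 2 of ire1a ire1b tunicamycin also had the highest log2 ratio of 3' to 5' control signal, 1.69, a measure of RNA integrity and labelling whose range over the 12 arrays began at 1.27. The ratio was 1.39 on array 2 of ire1a ire1b mock and 1.35 on array 3 of wild-type mock. On array 3 of wild-type tunicamycin, where AT3G18260 was highest in its group, it was 1.60. The part of this ratio in the low readings was not tested.

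The difference that chose the members was as follows. Under mock treatment AT3G18260 was 4.99-fold higher in ire1a ire1b than in wild type, a log2 difference of 2.32 ± 0.21 (SE, 3 arrays per group, 95% interval 1.86 to 2.78). Under tunicamycin it was 3.09-fold higher in ire1a ire1b, a log2 difference of 1.63 ± 0.21 (interval 1.17 to 2.08). AT1G68230 was 3.80-fold higher in ire1a ire1b under mock, a log2 difference of 1.92 ± 0.24 (interval 1.41 to 2.44). Under tunicamycin it was 4.45-fold higher in ire1a ire1b, a log2 difference of 2.15 ± 0.24 (interval 1.64 to 2.67). The point estimate was thus larger under mock for AT3G18260 and larger under tunicamycin for AT1G68230. That change is the interaction given below, which is made of these same differences.

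Among the 13647 probe sets ordered by log2 difference under mock, AT3G18260 ranked 2 and AT1G68230 ranked 9. Under tunicamycin they ranked 87 and 25. The ranks of AT3G18260 rest on wild-type signals that were all under 68.7, so they hold only for the signals as deposited. As background, 0.161% of probe sets passed the test as higher in ire1a ire1b under mock and 6.68% under tunicamycin, and 0.154% passed as higher under both. Among the 21 probe sets higher under both, 13 listed 1 named gene. Non-overlap of the arrays was commoner: all mutant arrays exceeded all wild-type arrays for 5.32% of probe sets under mock, for 11.5% under tunicamycin and for 0.681% across all 6 against 6. The members are inside these shares by selection, so nothing is read from them.

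The size of the fold for AT3G18260 depended on how the dim wild-type signals were treated. The ire1a ire1b mean was 2.28 times the filter value under tunicamycin and 2.41 times under mock. With every signal under 68.7 raised to that value, an alternative chosen after seeing the data, the log2 difference of AT3G18260 was 1.18 under tunicamycin and 1.27 under mock. For AT1G68230 the same step gave 2.07 under tunicamycin and 1.83 under mock, and its ire1a ire1b mean was 4.53 and 4.03 times the filter value. The direction was the same in each case.

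The tunicamycin differences use the same arrays as the genotype differences that chose the members, so they are not independent of that choice, and choosing genes with low wild-type mock signals favours a positive tunicamycin difference in wild type. Their p-values are given beside the values and support nothing further. In ire1a ire1b, AT3G18260 differed by a log2 value of -0.09 ± 0.21 between tunicamycin and mock (SE, 3 arrays per group, 95% interval -0.54 to 0.37, limma adjusted p = 0.99997, exact permutation p = 0.5). In wild type it differed by 0.61 ± 0.21 (interval 0.15 to 1.06, limma adjusted p = 0.144), with every tunicamycin array above every mock array. That separation had an exact two-sided permutation p of 0.1, the smallest that 3 arrays against 3 allow, and 14.2% of probe sets separated in the same direction. The wild-type difference did not pass, and it lies wholly among signals under 68.7. AT3G18260 entered the tested set only through its mutant arrays, since 0 of its 6 wild-type arrays were above that value. Nothing is therefore read from this test.

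AT1G68230 differed by a log2 value of 0.12 ± 0.24 between tunicamycin and mock in ire1a ire1b (interval -0.39 to 0.64, limma adjusted p = 0.99997, exact permutation p = 0.8). In wild type the difference was -0.10 ± 0.24 (interval -0.62 to 0.41, limma adjusted p = 0.868, exact permutation p = 0.8). Tunicamycin and mock arrays overlapped in both genotypes. With 3 arrays a group, the intervals leave room for changes of the size of their bounds, and nothing is read from these p-values.

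The interaction, the tunicamycin effect in ire1a ire1b minus that in wild type, was -0.69 ± 0.30 on the log2 scale for AT3G18260 (interval -1.34 to -0.05, limma adjusted p = 0.382). For AT1G68230 it was 0.23 ± 0.34 (interval -0.50 to 0.95, limma adjusted p = 0.877). Neither passed. This interaction equals the genotype difference under tunicamycin minus that under mock, the differences that chose the members. Nothing is therefore read from its p-values, and they cannot decide whether the mutant to wild-type difference varies with tunicamycin. Over all probe sets, 2.98% passed the interaction as higher and 0.0879% as lower.

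**Figure D2:**
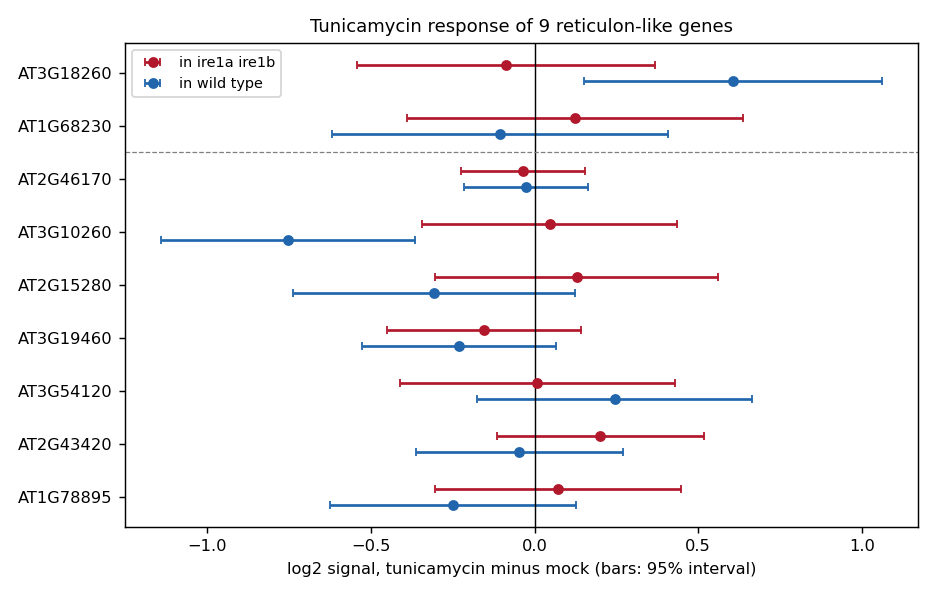
Log2 difference between tunicamycin and mock arrays in ire1a ire1b and in wild type, for the 9 tested reticulon-like genes, AT3G18260 and AT1G68230 included. Points are limma estimates, horizontal bars are 95% intervals and the vertical line is no difference. AT3G18260 in wild type, 0.61, has an interval that leaves out 0, but it did not pass after adjustment.

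The 7 other reticulon-like genes that could be tested did not share the genotype difference to the same size. The members were chosen for that difference, so their larger size was partly set by the choice. Of 23 loci listed from general knowledge of the family, 11 had a probe set of their own, the members included, and 12 had none. RTNLB13, among the best known plant reticulons, is one of those without. AT2G01240 and AT4G28430 were too dim to test, which left 7 tested genes besides the members. Their log2 differences between ire1a ire1b and wild type ran from 0.06 to 0.81 under tunicamycin, with a median of 0.21, and from -0.22 to 0.45 under mock, with a median of 0.01. The medians over all tested probe sets were -0.08 under tunicamycin and -0.02 under mock. Under tunicamycin 1 of the 7 passed as higher and 0 as lower, beside 6.68% of all probe sets that passed as higher and 3.03% as lower. Under mock 0 of the 7 passed in either direction by limma, beside 0.161% of all probe sets higher and 0.322% lower. At an unadjusted limma p under 0.05, 1 of the 7 was higher under mock, beside 367 of all 13647 probe sets.

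AT3G10260, the reticulon-like gene that passed, differed from the members in its pattern. It read 1573, 1763 and 1480 on the ire1a ire1b tunicamycin arrays and 1484, 2191 and 1148 on the ire1a ire1b mock arrays. On the wild-type tunicamycin arrays it read 957.0, 889.5 and 898.9, and on the wild-type mock arrays 1610, 1657 and 1372. Only the wild-type tunicamycin arrays stood apart, below each of the other 9. Tunicamycin lowered its signal in wild type by a log2 change of -0.75 ± 0.18 (SE, 3 arrays per group, limma adjusted p = 0.0214), among 5.77% of probe sets that passed as lower and 0.432% as higher. The separation of those arrays was shared in direction by 11.8% of probe sets.

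In ire1a ire1b the tunicamycin difference of AT3G10260 was 0.05 ± 0.18 (limma adjusted p = 0.99997), where 0.044% of probe sets passed as higher and 0.0% as lower, with 182 lower by limma at an unadjusted p under 0.05. It was higher in ire1a ire1b than in wild type under tunicamycin by 0.81 ± 0.18 (limma adjusted p = 0.0109) and differed by 0.01 ± 0.18 under mock (limma adjusted p = 0.995). Its interaction, 0.80 ± 0.26, did not pass (limma adjusted p = 0.154), although it did with the replicate number as a block (limma adjusted p = 0.0408), with array weights (limma adjusted p = 0.00603) and without ire1a ire1b mock array 2, which read 2191 (1.05, limma adjusted p = 0.00618). Over all probe sets, calls of a higher interaction also rose in these runs, from 406 to 605, 853 and 447 in that order. The fall in wild type ended as a call when any 1 of 5 arrays was left out, with adjusted p between 0.0607 and 0.0965. These 5 arrays were wild-type tunicamycin 1, 2 and 3 and wild-type mock 1 and 2. The genotype call under tunicamycin ended without ire1a ire1b tunicamycin array 2 (limma adjusted p = 0.0507).

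The other 6 tested family members were not called in any comparison. AT3G54120 read 149.5, 141.9 and 145.0 on the ire1a ire1b tunicamycin arrays and 159.9, 171.7 and 110.2 on the ire1a ire1b mock arrays. Its wild-type values were 117.7, 122.3 and 136.8 with tunicamycin and 118.2, 117.5 and 85.3 in mock. Its log2 difference between ire1a ire1b and wild type was 0.21 ± 0.20 under tunicamycin (limma adjusted p = 0.567) and 0.45 ± 0.20 under mock (limma adjusted p = 0.579), and the mock arrays overlapped. AT2G46170 had differences of 0.10 ± 0.09 under tunicamycin and 0.11 ± 0.09 under mock (limma adjusted p = 0.537 and 0.825). Its 6 mutant arrays all lay above its 6 wild-type arrays, as was so for 0.681% of all tested probe sets. The gap was narrow, with a lowest mutant value of 1760 and a highest wild-type value of 1750.2. With tunicamycin in ire1a ire1b 0 of the 7 passed in limma, with log2 differences of -0.15 to 0.20. At an unadjusted limma p under 0.05 there were also 0 of the 7, beside 319 of 13647 probe sets higher and 182 lower. In wild type the tunicamycin differences of the 7 ran from -0.75 to 0.24 with a median of -0.23. The median over all tested probe sets was 0.09.

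**Figure D3:**
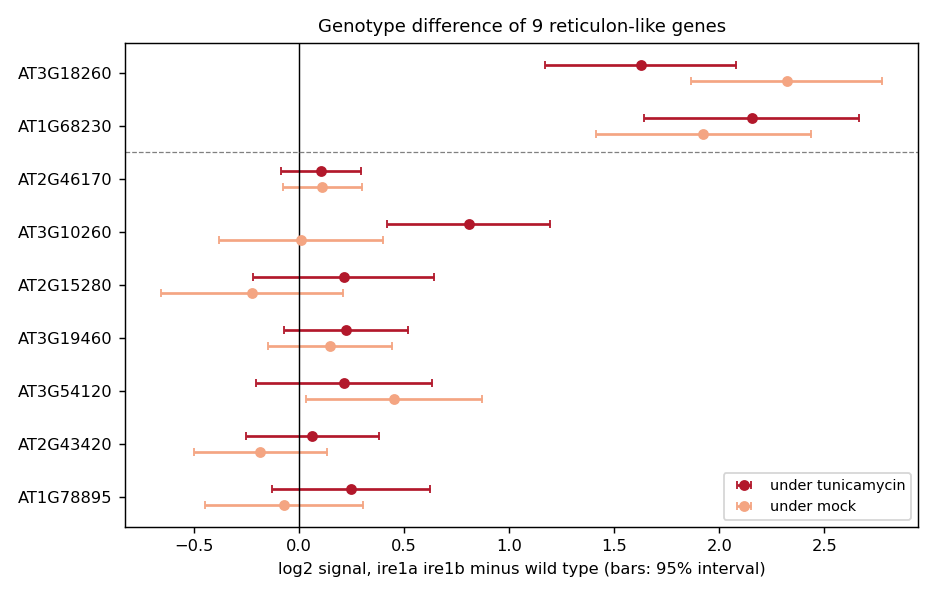
Log2 difference between ire1a ire1b and wild type for the 9 tested reticulon-like genes, under tunicamycin and under mock, with 95% intervals from limma. AT3G18260 and AT1G68230, chosen by these values, lie between 1.63 and 2.32, and the other 7 genes lie between -0.22 and 0.81.

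Other families that shape the ER were sparsely covered. HVA22 proteins are relatives of the yeast Yop1 and animal REEP proteins, which also hold hairpins in the ER membrane. Of 11 HVA22 loci listed, 2 had a tested probe set, HVA22C and AT5G42560, and neither was called in any comparison by limma. At an unadjusted limma p under 0.05 the 1 difference was that of HVA22C between genotypes under tunicamycin. It was lower in ire1a ire1b, as were 1658 of 13647 probe sets at that threshold. HVA22C differed between ire1a ire1b and wild type by -0.28 ± 0.12 under tunicamycin (limma adjusted p = 0.189) and by -0.11 ± 0.12 under mock (limma adjusted p = 0.886). Of 12 further loci listed as ER-shaping, 3 were tested. RL2, a relative of the ROOT HAIR DEFECTIVE3 fusion GTPase, was not called. AT2G24330 read 342.1, 310.0 and 281.3 in ire1a ire1b and 238.9, 235.8 and 180.1 in wild type under tunicamycin. These arrays did not overlap, as was so in that direction for 11.5% of probe sets. The log2 difference of AT2G24330, 0.52 ± 0.16, did not pass (limma adjusted p = 0.0537). It did pass with the replicate block, array weights, median centring, quantile normalization or a filter at the 60th percentile (limma adjusted p 0.0177 to 0.0456). It also passed without ire1a ire1b mock 2 or 3 or ire1a ire1b tunicamycin 3 (adjusted p 0.0388 to 0.0450). Under mock it differed by 0.14 ± 0.16. AT4G31080 on its brighter probe set fell with tunicamycin in wild type by 0.78 on the log2 scale (limma adjusted p = 0.0157), where 5.77% of probe sets passed as lower. Under tunicamycin it was higher in ire1a ire1b than in wild type by 0.71 ± 0.18 (limma adjusted p = 0.0224), where 6.68% passed as higher. Its mock difference was 0.01 ± 0.18. Its dimmer probe set passed under tunicamycin between genotypes, at 0.93 ± 0.26 (limma adjusted p = 0.0392), but not for tunicamycin in wild type, at -0.60 ± 0.26 (limma adjusted p = 0.283). That call of the dimmer probe set ended without any 1 of wild-type tunicamycin 1, 2 or 3, ire1a ire1b tunicamycin 1 or 2, ire1a ire1b mock 1 or wild-type mock 2 (adjusted p 0.0537 to 0.141). It also ended with no filter (0.0689), with no intensity trend (0.0511) and with only the 6 arrays compared (0.0713). On the brighter one the fall ended as a call without any 1 of wild-type mock 1 or 2 or wild-type tunicamycin 1 or 3 (adjusted p 0.0580 to 0.0777), and the genotype call ended without wild-type tunicamycin 1 or 3 or ire1a ire1b tunicamycin 1 or 2 (adjusted p 0.0626 to 0.100).

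Genes whose array profile was most like each member were then found. Likeness was the root mean square difference between log2 profiles over the 12 arrays, each centred on its own mean, among 7317 other probe sets of 1 named gene. It carries no test, since all genes share the same arrays and the profile sought is the one the members were chosen for. AT2G27140 was nearest to both members, at 0.22 from AT3G18260 and 0.22 from AT1G68230, where the median gene lay at 1.06 and 1.09. The members were 0.34 from each other, which made AT1G68230 the second nearest to AT3G18260 and AT3G18260 the third nearest to AT1G68230.

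AT2G27140 read 373.5, 376.7 and 427.0 on the ire1a ire1b tunicamycin arrays and 390.4, 399.0 and 381.1 on the ire1a ire1b mock arrays. It read 93.2, 102.7 and 102.0 on the wild-type tunicamycin arrays and 110.0, 100.9 and 66.1 on the wild-type mock arrays. Its mutant arrays were all above its wild-type arrays, by a log2 difference of 1.98 under tunicamycin and 2.11 under mock. Next for AT3G18260 were GSTF4, a glutathione transferase, at 0.39, AT1G29520 at 0.39 and AT3G05620 at 0.46. For AT1G68230 they were AT1G29520 at 0.32, GSTF4 at 0.39 and AT5G06730 at 0.43. Both lists thus held AT2G27140, AT1G29520 and GSTF4. AT5G06730 differed from the members in wild type, where its tunicamycin arrays were all below its mock arrays. That separation was shared in direction by 11.8% of probe sets, and the log2 difference of -0.82 ± 0.28 did not pass (limma adjusted p = 0.127). Between genotypes AT5G06730 was higher in ire1a ire1b by 2.26 ± 0.28 under tunicamycin (limma adjusted p = 0.000135). Under mock the difference was 1.12 ± 0.28 and did not pass (limma adjusted p = 0.161).

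**Figure D4:**
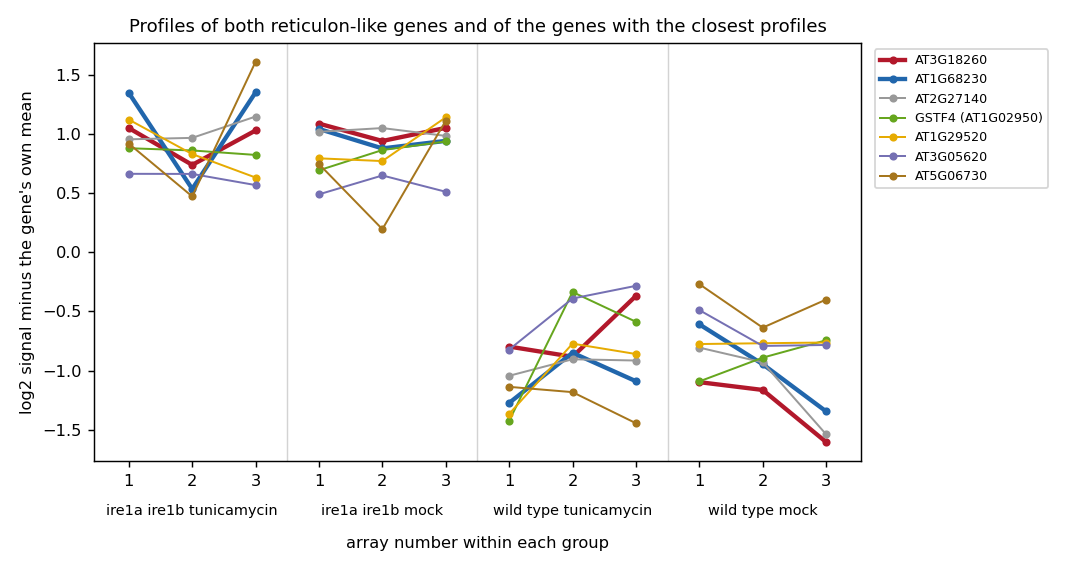
Centred log2 signal on the 12 arrays, grouped by genotype and treatment, for each member and the 5 genes with the most similar profile. Lines are genes and points are arrays; the step between mutant and wild-type arrays is shared by the genes drawn, which were picked for that likeness.

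The genes that lie beside each member on its chromosome were not called under mock. Order was taken from the RefSeq gene table of assembly TAIR10.1, and up to 3 genes with a probe set of their own were taken on each side. AT3G18250, next to AT3G18260, averaged 199.2 ± 21.0 in ire1a ire1b and 196.8 ± 36.8 in wild type under tunicamycin (SD, n = 3 each). Under mock it averaged 241.1 ± 32.7 in ire1a ire1b and 167.0 ± 9.75 in wild type (SD, n = 3 each). Its log2 differences were 0.03 ± 0.17 under tunicamycin and 0.52 ± 0.17 under mock (limma adjusted p = 0.943 and 0.373). AT3G18280 on the other side differed by -0.04 under tunicamycin and -0.33 under mock (limma adjusted p = 0.918 and 0.619). Neither neighbour showed a difference of the members' size.

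AT3G18215, farther from AT3G18260 in gene order, was the only tested neighbour that passed. It was higher in ire1a ire1b under tunicamycin by 0.93 ± 0.15 (limma adjusted p = 0.00122), where 6.68% of all probe sets passed as higher. Its mock difference was 0.09 ± 0.15 (limma adjusted p = 0.931). With tunicamycin in wild type it fell by 0.80 on the log2 scale (limma adjusted p = 0.00409), where 5.77% of all probe sets passed as lower. AT1G68220, next to AT1G68230, differed by 0.07 ± 0.11 under tunicamycin and 0.07 ± 0.11 under mock (limma adjusted p = 0.767 and 0.928). The 3 neighbours taken on the other side of AT1G68230 were too dim to test.

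**Figure D5:**
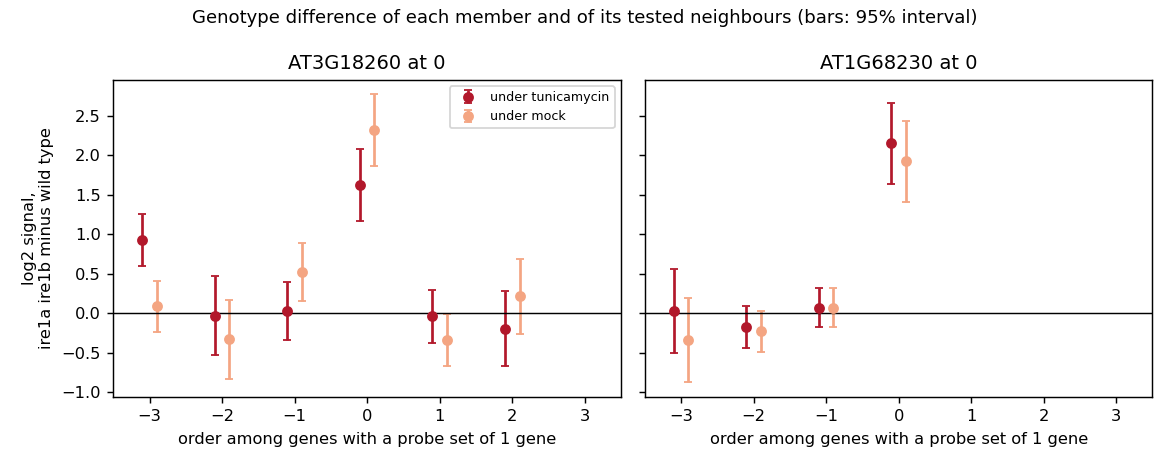
Log2 difference between ire1a ire1b and wild type for each member, at position 0, and for tested genes beside it in chromosome order, under tunicamycin and under mock, with 95% intervals from limma. AT3G18260 and AT1G68230 stand above their tested neighbours, of which the highest is AT3G18215 at 0.93 under tunicamycin.

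The seedlings were bulk tissue, so fewer cells of a type and less RNA per cell cannot be told apart. Of 7 shoot markers, 1 had a probe set, RCA, the Rubisco activase, and it differed between ire1a ire1b and wild type by -0.01 under tunicamycin and -0.02 under mock. Of 9 root markers, 1 had a probe set, PYK10, an ER body beta-glucosidase of the root, with mean signals of 24641 in ire1a ire1b and 10067 in wild type under tunicamycin, and 23105 in ire1a ire1b and 22998 in wild type under mock. PYK10 differed between genotypes by 1.29 on the log2 scale under tunicamycin and by 0.0069 under mock. With 1 marker for each organ, the part of tissue makeup in the members' differences was not tested. None of the 5 seed markers had a probe set, and the 1 of 4 pollen markers that had one was too dim to test. IRE1A and IRE1B had 0 probe sets of their own, so the mutant status was not checked here. Median signals lay between 106.7 and 118.8 on the 12 arrays.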

How the data were processed

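Each array's deposited file column holds a linear array intensity per probe set, which the authors made, per the submitters' processing notes, with MAS5. The MAS5 version is not given in the sources used here. The 2% trimmed mean was 500.1 on every array, so changes are relative to the bulk of the transcripts. The log2 of these signals was analysed as it stood. Probe sets with a mean log2 signal above the 40th percentile (6.10) were tested in limma 3.58.1 (R 4.3.3), with 1 mean per group, an intensity trend in eBayes and Benjamini-Hochberg adjustment over all 13647, at a threshold of 0.05. Tests were two-sided. The fit was tested on simulated data. Of 22810 probe sets, 64 were controls, 13513 had 1 gene in the platform table, 503 had more than 1 and 8730 had no entry. RefSeq names (TAIR10.1) were found for 13436 of those with 1 gene. For a gene with more probe sets the brightest stands for it.

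The members and gene lists were chosen with earlier results of these data known. Genes named are the members, the listed reticulon-like and ER-shaping genes, the 5 closest profiles of each member, up to 3 neighbours a side and marker genes; which of these were described in full was decided after their values were seen. Deviations of same-numbered arrays from their group means had r of 0.11, 0.44 and 0.51 between ire1a ire1b tunicamycin and mock. They had r of 0.08, 0.34 and 0.39 between the genotypes under mock. The values were 0.13, 0.02 and 0.12 between wild-type tunicamycin and mock, and -0.095, -0.005 and 0.03 between the genotypes under tunicamycin. Arrays of unlike number were not compared, so whether the numbers pair samples was not tested. Other filters, normalizations, offsets, array weights, a replicate block and leaving out each array were tried.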

Additional observations from a re-analysis of the deposited data

Results flagged for a closer look

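PYK10 (AT3G09260), used above as a root marker, changed differently with tunicamycin in ire1a ire1b and in wild type: the test of the difference gave an interaction of 1.28 ± 0.10 on the log2 scale (limma adjusted p = 1.30e-05). Groups of 3 arrays were not searched for single arrays that stand apart.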

How the results depend on the processing

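Only processed values were used, so background correction could not be varied. Of the members' tunicamycin and interaction results, none passed under any alternative run; for AT3G18260 in wild type the adjusted p ran from 0.0649 to 0.412. An offset of 50 lowered the genotype differences to 1.03 under tunicamycin and 1.37 under mock for AT3G18260, and to 1.58 and 1.40 for AT1G68230. Raising signals to the filter value gave AT3G18260 1.18 and 1.27, its interaction -0.09, and no wild-type tunicamycin value, since all 6 arrays were raised. A filter at the 60th percentile left both members out. Leaving out single arrays gave AT3G18260 -0.14 to 0.013 for tunicamycin in ire1a ire1b, the value above 0 being without ire1a ire1b tunicamycin array 2. It gave AT1G68230 -0.013 to 0.40 in ire1a ire1b, where the 0.40 is without that same array and the values below 0 without array 1 or 3. In wild type it gave AT1G68230 -0.29 to 0.075, the 0.075 being without wild-type mock array 1. Genotype differences then ran from 1.53 to 1.78 under tunicamycin and from 2.16 to 2.42 under mock for AT3G18260, and from 2.02 to 2.42 and 1.73 to 2.1035 for AT1G68230.

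With the replicate number as a block, the members' values were the same, with adjusted p = 0.154 for AT3G18260 in wild type and 0.358 for its interaction. In the interaction, the block gave 1 call higher among the 7 other reticulon-like genes (AT3G10260) and 1 among the 3 ER-shaping genes, as did array weights, against 0 of each. Over all probe sets such calls rose from 406 to 605 (block) and 853 (array weights). Array weights also gave 1 reticulon-like call under mock (AT3G54120), where the full count rose from 22 to 309. ER-shaping calls higher under tunicamycin were 2 in place of 1 with the block, array weights, median centring, quantile normalization or a filter at the 60th percentile. Single arrays left out gave 0 to 1 calls per comparison for the reticulon-like genes, and 0 to 2 for the ER-shaping genes under tunicamycin. The cause was not tested, and nothing is read from added calls.

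Counts over all probe sets moved more. Higher in ire1a ire1b under mock were 22, against 309 with array weights, 41 with the block and 14 with the 60th percentile filter. They were 15 to 33 without single arrays (33 without ire1a ire1b tunicamycin 3). Lower were 44, against 598 with array weights, 22 with only the 6 arrays compared and 15 to 70 without single arrays (15 without wild-type mock 2, 70 without ire1a ire1b tunicamycin 3). Under tunicamycin, higher were 911, against 1171 with array weights, 1115 with the block and 656 to 1024 without single arrays. Lower were 413, against 614 with the block, 611 with array weights and 264 with median centring. Without single arrays lower were 187 to 469 (187 without wild-type tunicamycin 3). Interactions were 406 higher, against 853 with array weights and 276 to 606 without single arrays. Lower interactions were 12, against 87 with array weights, 5 with the 60th percentile filter and 6 to 29 without single arrays (29 without ire1a ire1b tunicamycin 3). Tunicamycin in wild type gave 59 higher, against 169 with array weights and 35 to 84 without single arrays, and 788 lower, against 557 to 896. In ire1a ire1b it gave 6 higher, against 12 with array weights, 1 with only the 6 arrays and 3 to 8 without single arrays.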
